A study of Mus musculus with 39 samples.

Results

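Cells with 2 paternal copies of mouse chromosome 7 (patUPD, paternal uniparental disomy) were compared with cells with 2 maternal copies (matUPD) in the neocortex at embryonic day 16 (E16). Both kinds of cell arose in the same embryo through MADM (mosaic analysis with double markers), in which a recombination between homologous chromosomes leaves one daughter cell red (tdT+) and the other green (GFP+). The comparison took 14 red and green libraries, 7 patUPD and 7 matUPD, of the 39 in the series; 7 yellow libraries of the same embryos, whose cells carry 1 chromosome 7 from each parent, served as controls. All groups came from embryos with the MADM-7-GT and MADM-7-TG cassettes and Emx1-Cre, which is active in the progenitors of cortical projection neurons. The mice were on a mixed C57BL/6J, CD1 background and received no other treatment. Each library was a Smart-Seq2 preparation from a small pool of sorted cells of 1 embryo, and the red, green and yellow libraries with the same replicate number were taken to share an embryo.

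GEO's labels give colour and not parent, so the groups were chosen by the measured counts of 4 genes that are expressed from the paternal copy: Snrpn, Snhg14, Inpp5f and Kcnq1ot1. Red was patUPD in embryos 1 to 3 and green was patUPD in embryos 4 to 7, which puts both colours in both groups. The 4 genes were higher in the patUPD library in 28 of 28 comparisons within embryos, by 1.66 to 9.37 on the log2 scale. That is what defined the groups and is no finding. The study's own list of libraries names the same parent for each of them.

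Gene counts per library ranged from 472924 to 4728869 in the 14 libraries. MatUPD embryo 5 stood apart, with 8803 genes detected and 18.5% of reads lying in more than 1 gene, against a median of 4.24% over the 14 libraries. The study had left out matUPD embryos 5 and 6 and yellow embryo 7 for low correlation with their replicates. They are kept here, and values without them are given where they matter. All 6 markers of the Emx1 lineage were detected, at a summed level of 1057 to 1677 CPM (counts divided by the library's gene counts and scaled to 1 fixed total, with TMM factors) in patUPD and 1364 to 3426 CPM in matUPD. Of 7 erythroid genes all were detected, with sums of 0.437 to 6815 CPM in patUPD, the highest in embryo 1, and 1.501 to 22.7 CPM in matUPD. Of 5 oligodendrocyte lineage genes 4 were detected, with sums of 0 to 14.6 CPM in patUPD and 0 to 573 CPM in matUPD, the highest in embryo 5. The part of these libraries in the results was not tested, beyond the values without them. In bulk libraries, fewer cells of a type and less RNA per cell cannot be told apart.

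Genomic imprinting silences one parental copy of a gene through DNA methylation laid down in the egg or the sperm and kept in the embryo. Imprinted genes lie in clusters under a shared control region. Mouse chromosome 7 holds several of them: the Peg3 domain, the Snrpn-Ube3a domain that corresponds to the human Prader-Willi and Angelman region, Inpp5f, and the neighbouring H19-Igf2 and Kcnq1 domains. In a tissue where a gene is imprinted, a cell with 2 paternal copies should carry 2 active copies if the gene is paternally expressed. It should carry none if the gene is maternally expressed, and the reverse holds for a cell with 2 maternal copies.

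Before their start sites, the paternally expressed genes have sequence in which CG dinucleotides, the targets of DNA methylation, vary in number. The 250 bases before the RefSeq starts (GRCm38.p6) are shown for 5 of the genes on which the comparison turns, in 4 windows, 5′ to 3′ on the gene's own strand, with CG in capitals. RefSeq's table held a window for 13 of the 17 genes tested in the chromosome 7 lists.
Snrpn and Snhg14, chr7:60450178-60450427, minus strand: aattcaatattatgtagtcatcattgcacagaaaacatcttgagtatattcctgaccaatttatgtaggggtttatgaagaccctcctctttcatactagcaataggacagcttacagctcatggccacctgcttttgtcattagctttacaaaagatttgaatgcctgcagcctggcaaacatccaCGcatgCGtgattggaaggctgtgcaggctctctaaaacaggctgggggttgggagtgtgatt
Ndn, chr7:62348027-62348276, plus strand: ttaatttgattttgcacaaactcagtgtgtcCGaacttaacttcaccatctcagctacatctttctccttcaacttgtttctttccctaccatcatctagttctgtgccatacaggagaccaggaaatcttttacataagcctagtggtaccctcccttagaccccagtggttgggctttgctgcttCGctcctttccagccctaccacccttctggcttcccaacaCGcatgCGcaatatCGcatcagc
Mkrn3, chr7:62420154-62420403, minus strand: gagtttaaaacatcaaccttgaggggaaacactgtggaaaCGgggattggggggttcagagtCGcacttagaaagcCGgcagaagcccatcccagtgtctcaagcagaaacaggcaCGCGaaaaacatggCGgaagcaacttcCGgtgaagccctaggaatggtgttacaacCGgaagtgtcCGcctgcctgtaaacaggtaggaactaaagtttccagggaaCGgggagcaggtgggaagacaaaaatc
Peg3, chr7:6730420-6730669, minus strand: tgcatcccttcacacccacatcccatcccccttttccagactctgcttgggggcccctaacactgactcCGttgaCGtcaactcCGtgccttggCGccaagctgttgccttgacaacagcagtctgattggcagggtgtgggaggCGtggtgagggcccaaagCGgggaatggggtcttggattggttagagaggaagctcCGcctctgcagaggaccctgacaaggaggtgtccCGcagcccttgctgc

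The windows hold 2 CG in Snrpn and Snhg14, 5 in Ndn, 10 in Mkrn3 and 8 in Peg3, beside a median of 6 over all 32851 windows in the table. Snrpn and Snhg14 share this start and the same window. It lies upstream of the gene positions used here, whose 5′ ends are 60140219 for Snrpn and 59975759 for Snhg14. Further Snrpn windows of the table, which are not shown, hold 3, 4 and 3 CG. The Ndn window lies inside the gene position used here, 62346569-62350262, and not before it. The letters CGCATGCG, which read the same on both strands, stand in the Snrpn and Snhg14 window and in the Ndn window, and in 1.55% of all windows; 2 further Snrpn windows of the table hold them too. The letters were noticed in the printed sequences and then counted. The letters TGCCGC, the core recognised by the imprint-keeping factor ZFP57, were searched on both strands and stand in none of the 4 windows and in 8.68% of all windows, which says nothing about the factor. The Peg3 and Usp29 genes run away from each other, and their windows share 163 bases.

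The 4 genes that set the direction gave these levels, as a description. Snrpn, which encodes a spliceosomal protein of neurons, ranged from 146 to 446 CPM in patUPD, with a median of 291 CPM, and from 7.65 to 27.5 CPM in matUPD, with a median of 12.8 CPM. Inpp5f, a phosphoinositide phosphatase gene, ranged from 320.2 to 536 CPM in patUPD and from 9.50 to 159.9 CPM in matUPD, and the matUPD values varied more widely relative to their median. Both had counts in every matUPD library.

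The 2 noncoding RNAs of the group were closer to absent in matUPD. Kcnq1ot1, the antisense RNA of the Kcnq1 domain, ranged from 175 to 436 CPM in patUPD and was at 0 in 4 of 7 matUPD libraries, with a highest value of 28.9 CPM. Snhg14, the long host of small nucleolar RNAs that runs antisense to Ube3a, ranged from 11.8 to 174 CPM in patUPD and was at 0 in 3 of 7 matUPD libraries, with a highest value of 12.6 CPM. Its groups overlapped by a small margin, while those of the other 3 genes did not.

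Ndn, in the Snrpn-Ube3a domain, was the one gene outside those that set the direction to pass the edgeR test across all genes with the filter on low counts; DESeq2 and edgeR with no filter passed more, given with the counts over all genes. It lies on chromosome 7 at 62346569-62350262 (GRCm38, as are all positions) and encodes necdin, a MAGE family protein of postmitotic neurons. Ndn ranged from 567 to 1715 CPM in patUPD, with a median of 797 CPM, and from 0 to 116 CPM in matUPD, with a median of 53.7 CPM. Every patUPD library lay above every matUPD library, and the library at 0 was matUPD embryo 5. Ndn was higher in patUPD by 4.12 on the log2 scale (SE 0.64, edgeR quasi-likelihood test, adjusted p = 0.0194) and higher in 7 of 7 embryos. Without the 3 libraries that the study left out, the difference was 3.98 with an adjusted p of 2.12e-06. The call was lost when embryo 1, 2, 3, 4 or 7 was left out, with adjusted p from 0.105 to 0.165 and log2 differences from 4.04 to 4.22, and also with the red and green libraries alone, where the difference was 4.32 and the adjusted p 0.270.

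Mkrn3 and Magel2, the next genes of this domain, were at 0 in most matUPD libraries. Mkrn3, which encodes a zinc finger ubiquitin ligase, ranged from 0.437 to 75.3 CPM in patUPD, with a median of 12.2 CPM, and had 9 counts in total over the 7 matUPD libraries, 5 of which were at 0. Its groups overlapped only through the patUPD library of embryo 7, which had 2 counts, while the much shallower matUPD library of that embryo had 1. The log2 difference of Mkrn3 was 7.15 (SE 1.59, edgeR, adjusted p = 0.363), with patUPD higher in 6 of 7 embryos. Magel2, a MAGE family partner of ubiquitin ligases, ranged from 0.268 to 76.5 CPM in patUPD, with a median of 13.4 CPM, and was at 0 in 6 of 7 matUPD libraries. All 40 matUPD counts of Magel2 came from embryo 4, the 1 embryo in which patUPD was not higher. Its log2 difference was 6.72 (SE 2.32, edgeR, adjusted p = 1). Peg12, also of this domain, fell under the filter on low counts; it had 124 counts in patUPD and 1 in matUPD.

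**Figure D1:**
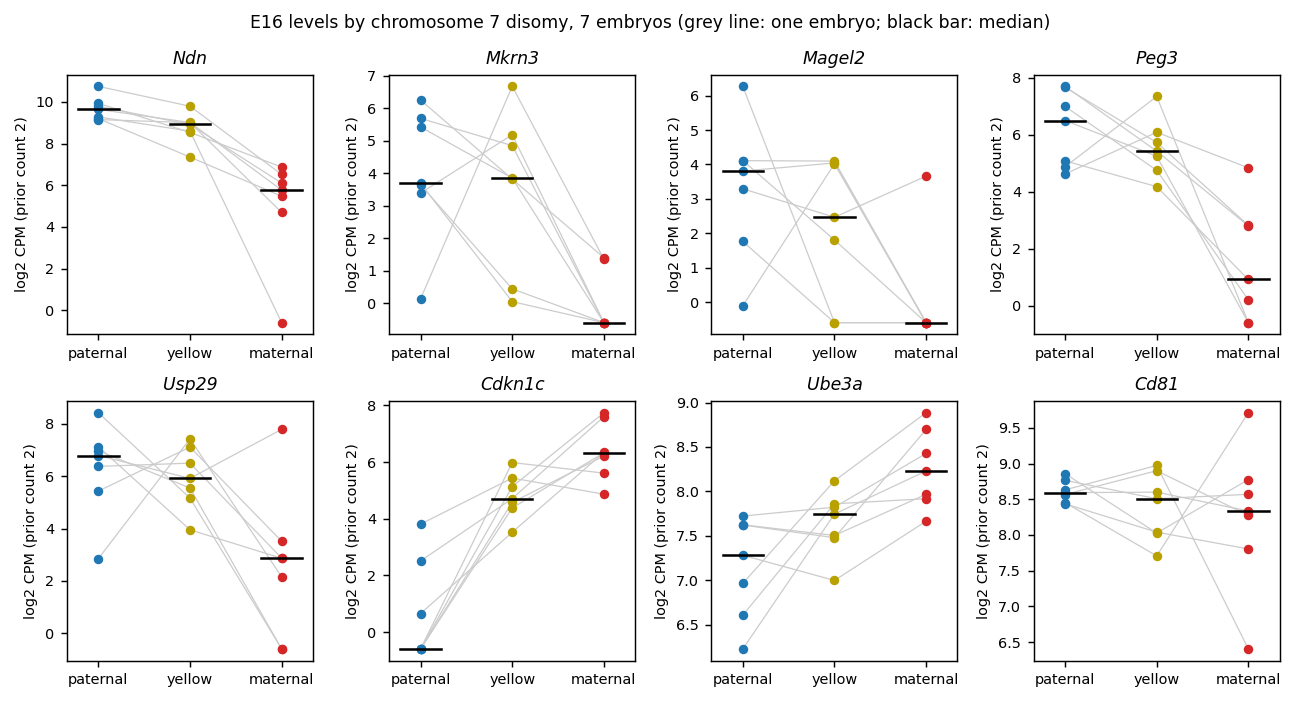
Levels of 8 chromosome 7 imprinted genes in each E16 library, as log2 CPM with a prior count of 2, in patUPD (blue), yellow control (ochre) and matUPD (red) libraries; a grey line joins the libraries of 1 embryo and a black bar marks the median of 7. Ndn in patUPD lies above every matUPD library and Cdkn1c in patUPD lies below every matUPD library, while Cd81 overlaps between the groups.

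Ube3a, the maternally expressed ubiquitin ligase gene at the other end of the domain, ran the other way. Ube3a (chromosome 7, 59228750-59311536) ranged from 74.1 to 210.5 CPM in patUPD, with a median of 155 CPM, and from 202 to 473 CPM in matUPD, with a median of 300 CPM. The groups met only at their edges, and the patUPD library was lower in 7 of 7 embryos, with a log2 difference of -1.06 (SE 0.33). No test is given, since Ube3a overlaps Snhg14, one of the genes that set the direction, and the kit marks no strand by which to tell their reads apart. The median over yellow libraries was 214 CPM, between the medians of the disomic groups.

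Peg3 and Usp29 form the Peg3 domain near the start of the chromosome. Peg3 (chromosome 7, 6703892-6730431), a zinc finger protein, ranged from 23.98 to 207 CPM in patUPD, with a median of 89.8 CPM, and from 0 to 27.9 CPM in matUPD, with a median of 1.23 CPM. The groups overlapped through embryo 2, which held both the lowest patUPD and the highest matUPD value. The log2 difference of Peg3 was 5.09 (SE 1.16, edgeR, adjusted p = 0.404), with patUPD higher in 6 of 7 embryos. Usp29, a gene of the ubiquitin-specific protease family that starts beside Peg3, ranged from 6.56 to 345 CPM in patUPD, with a median of 110 CPM, and from 0 to 221 CPM in matUPD, with a median of 6.64 CPM. The value of 221 CPM was matUPD embryo 6, one of the libraries that the study left out, and the next highest matUPD value was 10.8 CPM. Usp29 differed by 4.03 on the log2 scale (SE 1.42, edgeR, adjusted p = 1). Gm44863, an unlisted transcript inside Usp29, ranged from 1.09 to 42.7 CPM in patUPD and was at 0 in 5 of 7 matUPD libraries.

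In the Kcnq1 domain, the maternally expressed Cdkn1c encodes an inhibitor of cyclin-dependent kinases of the Cip/Kip family. Cdkn1c (chromosome 7, 143458339-143461050, minus strand) ranged from 28.5 to 214 CPM in matUPD, with a median of 79.6 CPM. It was at 0 in 4 of 7 patUPD libraries and reached 0.911, 5.03 and 13.4 CPM in embryos 1, 6 and 2. A count of 0 allows up to 3 counts, which is 0.671 to 4.77 CPM per patUPD library, for counting error only. Every matUPD library lay above every patUPD library. The sum over 7 libraries was 77 counts in patUPD, 2099 in matUPD and 586 in yellow.

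The difference of Cdkn1c within embryos was -5.73 ± 2.31 on the log2 scale (SD, n = 7), with patUPD lower in 7 of 7 embryos (exact sign-flip permutation test, two-sided p = 0.0156, the smallest that 7 embryos can give). In the fit across all genes the log2 difference was -6.49 (SE 1.33, edgeR, adjusted p = 0.227), which did not pass the threshold of 0.05. Over the alternatives tried that adjusted p ran from 1.46e-09 with DESeq2 to 1, and the log2 difference from -7.71 to -5.13. The smallest difference within an embryo was -1.06, in embryo 2, where the patUPD library held 49 counts.

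The other genes tested from the maternally expressed list showed no such separation. Whether each of them is imprinted in this tissue was not tested. Of 22 genes in the list, 8 passed the filter. Cd81, a tetraspanin gene of the Kcnq1 domain, ranged from 346 to 464 CPM in patUPD and from 84.0 to 839 CPM in matUPD, with a log2 difference of 0.19 (SE 0.38). Tssc4 differed by -1.07 (SE 0.93), Osbpl5 by -1.03 (SE 1.45), Nap1l4, a nucleosome assembly factor, by -0.32 (SE 1.07) and Tnfrsf22, a decoy receptor of the tumour necrosis factor receptor family, by 0.28 (SE 2.05). H19, the noncoding RNA of the H19-Igf2 domain, differed by -1.32 (SE 2.48) and was at 0 in 5 of 7 patUPD and 3 of 7 matUPD libraries. All 6 had an edgeR adjusted p of 1 and groups that overlapped. With standard errors of this size, differences of 1 on the log2 scale were not detectable for most of them. The maternally expressed Ascl2, Phlda2 and Kcnq1 and the paternally expressed Igf2 were listed at 0 in all 21 E16 libraries; reads that lie in more than 1 gene, such as those where Kcnq1 and Kcnq1ot1 overlap, were not counted. A total of 6 other maternally expressed genes had counts but did not pass the filter, and they did not share a direction. Zim1 had 34 counts in patUPD and 84 in matUPD, while Atp10a had 31 and 1 and Dhcr7 had 54 and 31. Ampd3, Slc22a18 and Tnfrsf26 had 0 counts in patUPD and 2, 3 and 2 in matUPD.

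In all, 9 of 17 paternally expressed and 8 of 22 maternally expressed genes of the chromosome 7 lists passed the filter of a mean count of 10. Of the 5 paternally expressed genes that did not set the direction, 1 was called higher in patUPD (Ndn), beside 0.0278% of all 10794 genes tested that were called higher. All 5 had an unadjusted p under 0.05 with patUPD higher, beside 1.48% of all genes. Of the 7 maternally expressed genes that overlap no direction gene, none was called by edgeR, as for 0% of all genes called lower, and Cdkn1c alone had an unadjusted p under 0.05 with patUPD lower, beside 0.825% of all genes. The median log2 difference was 5.09 over the 9 paternally expressed genes and -1.04 over the 8 maternally expressed genes, against 0.09 over all genes. The first median includes the 4 genes that set the direction.

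**Figure D2:**
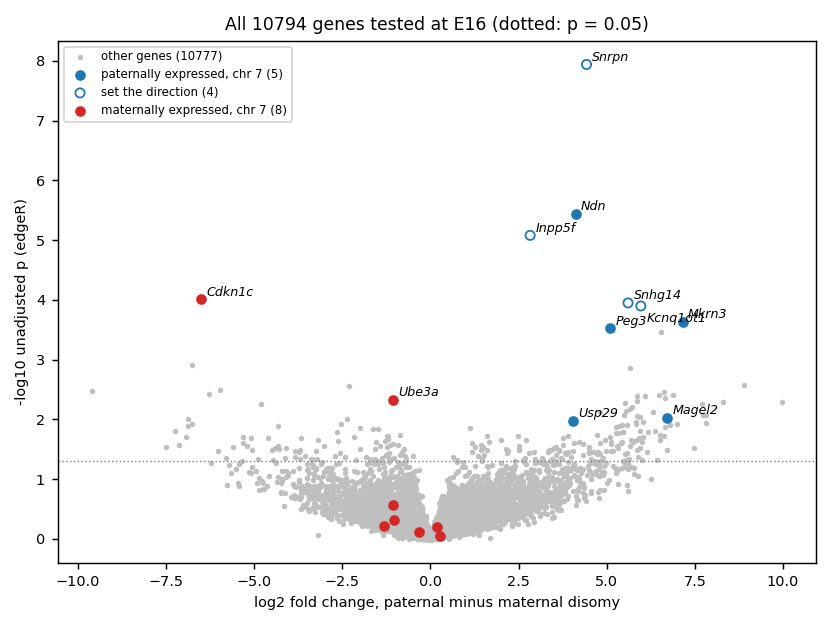
Each of 10794 genes by its log2 fold change, patUPD minus matUPD (horizontal), and the negative log10 of its unadjusted edgeR p (vertical); blue and red points are paternally and maternally expressed chromosome 7 genes and open circles are the 4 genes that set the direction. Ndn, Mkrn3, Peg3 and Cdkn1c lie with the direction genes above nearly all other genes.

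Ranked by p, the first 9 genes of the transcriptome all lay on chromosome 7, and 8 of them were in the imprinted lists. The choice of groups fixed the place of the 4 direction genes among them, which leaves Ndn, Cdkn1c, Mkrn3 and Peg3. The remaining one, Gm44831, overlaps Snhg14, was at 0 in 5 of 7 matUPD libraries and ranged from 15.7 to 98.5 CPM in patUPD. The 3 genes that passed the adjusted threshold were Snrpn, Ndn and Inpp5f, and 0 were called lower, with 249 genes (2.31%) at an unadjusted p under 0.05. DESeq2 called 61 genes, 32 higher (0.296%) and 29 lower (0.269%), with 10 from the imprinted lists. Those 10 were Snrpn, Ndn, Inpp5f, Kcnq1ot1, Snhg14, Peg3, Usp29, Mkrn3, Magel2 and, lower, Cdkn1c. EdgeR with no filter on low counts called 11 genes: Snrpn, Ndn, Inpp5f, Kcnq1ot1, Snhg14, Peg3, Mkrn3, Cdkn1c and the unlisted Stx2, Lrrc9 and Gm44831. Of the 61 DESeq2 calls, 30 had a log2 fold change past 20 in size, and none of these 30 was in the lists.

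Complete separation of the groups was rare. In 6 genes (0.0556%) all 7 patUPD libraries lay above all 7 matUPD libraries. These were Snrpn, Inpp5f and Kcnq1ot1, which set the direction, Ndn, and Plrg1 and Tsta3 on other chromosomes, both with an edgeR adjusted p of 1 and named after their values were seen. The reverse held for 1 gene (0.00926%), Cdkn1c. PatUPD was higher in 7 of 7 embryos for 101 genes (0.936%) and lower in 7 of 7 for 45 genes (0.417%). Among the listed genes, the 4 direction genes and Ndn were higher and Cdkn1c and Ube3a lower in every embryo.

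**Figure D3:**
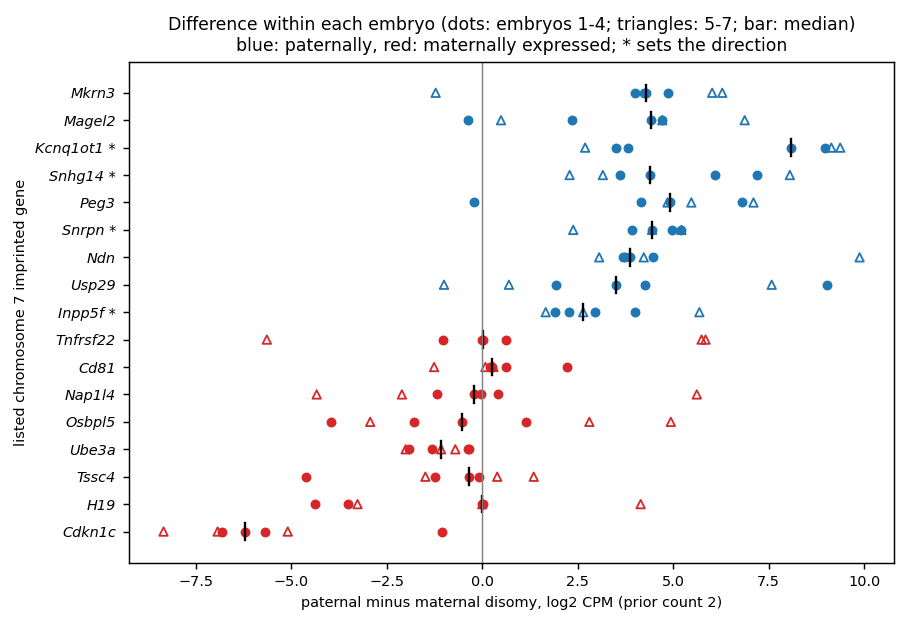
Difference between the patUPD and the matUPD library within each embryo, in log2 CPM with a prior count of 2, for the 17 listed chromosome 7 genes tested; filled circles are embryos 1 to 4, open triangles embryos 5 to 7, and bars are medians of 7. Ndn lies above 0 and Cdkn1c and Ube3a below 0 in every embryo, while Peg3, Mkrn3, Magel2 and Usp29 each have 1 embryo below 0.

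The exceptions fell in different embryos. For Peg3 the embryo below 0 was embryo 2 (-0.21), for Magel2 embryo 4 (-0.37), for Usp29 embryo 6 (-1.001) and for Mkrn3 embryo 7 (-1.22). The largest difference of Ndn, 9.87, was in embryo 5, where the matUPD library had no count of it. The other 6 embryos began at 3.06.

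The whole of chromosome 7 was disomic, and its unlisted genes were counted in the same way. Of 778 unlisted genes tested on chromosome 7, 0 were called by edgeR and 10 by DESeq2. Over all 10794 genes DESeq2 called 61, or 0.296% higher and 0.269% lower. The 10 of 778 are a larger share than the 61 of 10794. Ppm1n, Mtag2, Tmem143, Gm44553, Mesp1 and Gm37829, all among the 10, had a log2 fold change past 20 in size. The cause of the larger share was not tested. Of the 778, 24 (3.08%) had an unadjusted p under 0.05, beside 2.17% of 9601 genes on the other autosomes. The median log2 difference of the 778 genes was 0.15, with quartiles of -0.42 and 0.92, against 0.09 on the other autosomes. Of these 778, 12 lay within 100 kb of a listed gene that passed the filter. Among those that overlap no direction gene, Gm44863 alone had an unadjusted p under 0.05; it lies inside Usp29 and differed by 5.67 (SE 1.52). Gm44831 and A230103L15Rik overlap Snhg14 and are given by value alone, at 6.53 and 6.63. Both are among the 24 counted and the 10 called by DESeq2. Protein-coding neighbours such as Mcmbp (0.17, SE 0.42), which follows Inpp5f, and Cars (0.63, SE 0.71), near Nap1l4, had an edgeR adjusted p of 1.

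**Figure D4:**
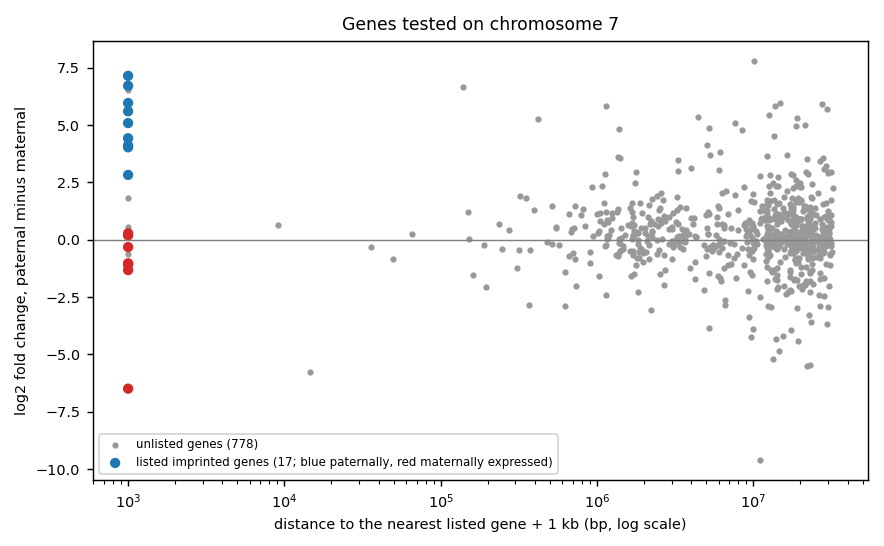
Log2 fold change, patUPD minus matUPD, of the genes tested on chromosome 7 (vertical) by their distance to the nearest listed imprinted gene plus 1 kb (horizontal, log scale); 17 listed genes are blue (paternally expressed) or red (maternally expressed) and 778 unlisted genes are grey. Away from the listed genes the points scatter around 0 at every distance, with a median of 0.14 beyond 100 kb.

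With edgeR at a mean count of at least 10, no gene outside the imprinted lists passed the adjusted threshold in either direction. The unlisted genes with the smallest p had uneven counts between libraries. Of the 6 named here, DESeq2 called Stx2, Lpgat1 and Ccsap, and edgeR with no filter on low counts called Stx2. Stx2, a syntaxin of vesicle fusion, had a median of 0 CPM in patUPD and 20.1 CPM in matUPD, with a highest matUPD value of 484 CPM. Lpgat1, a phospholipid acyltransferase, was lower in patUPD in 7 of 7 embryos, with medians of 31.5 and 110 CPM and a log2 difference of -2.31 (SE 0.67, edgeR, adjusted p = 1). As3mt, an arsenite methyltransferase, had 11 counts in patUPD and 463 in matUPD. In the other direction, Tmem25 had 335 counts in patUPD and 0 in matUPD, Abcb9, a lysosomal peptide transporter, had 812 and 5, and Ccsap, a spindle-associated protein, had 254 and 1. For each of these 3 genes, 2 patUPD libraries were also at 0.

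Cdkn1c restrains the cell cycle, so cell cycle genes were examined as lists, and none was called by edgeR. Of 39 S phase genes tested, 20 had a positive and 19 a negative log2 difference, with a median of 0.26, against 0.09 over all genes. An unadjusted edgeR p under 0.05 was found for 3 of the 39, beside 2.31% of all genes. The S phase genes with the smallest p were Cdc6, a replication licensing factor with 229 counts in patUPD and 0 in matUPD, and Exo1, an exonuclease with 173 and 7. DESeq2 called Cdc6. Of 46 genes of G2 and mitosis, 26 were positive and 20 negative, with a median of 0.20, and 2 had an unadjusted edgeR p under 0.05. Ncapd2, a condensin subunit, differed by 3.76 (SE 1.56) and Tubb4b, a beta tubulin, by -1.83 (SE 0.84), the latter lower in 7 of 7 embryos. The 16 other CDK inhibitors, G1 cyclins and Rb family genes tested had a median of 0.10, and 0 had an unadjusted edgeR p under 0.05. Among them Cdkn2c, an inhibitor of the INK4 family, differed by 3.27 (SE 2.07) and Cdk6 by -0.94 (SE 0.74). All of these genes had an edgeR adjusted p of 1.

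Genes of cell death and of cell identity gave no call by edgeR either. The 24 apoptosis genes and p53 targets tested had a median of -0.10 and 2 members with an unadjusted p under 0.05, beside 2.31% of all genes. Those were Pidd1, a death domain protein with 157 counts in patUPD and 3 in matUPD, and Eda2r, a receptor with 0 counts in patUPD and 317 in matUPD, all from embryos 1 and 2. Imprinted genes of other chromosomes, of which 20 were tested, had a median of -0.09 and none with p under 0.05. There Rtl1, a retrotransposon-derived gene, differed by 4.82 (SE 3.24) and Nnat, neuronatin, by -0.57 (SE 0.44). Radial glia markers had a median of -0.24 over 12 genes, of which 3 had a positive and 9 a negative log2 difference. Among them Id4 was at -0.97 (SE 0.70), and Emx2, a dorsal patterning factor, at -1.69 (SE 1.32) and lower in 7 of 7 embryos. Intermediate progenitor and proneural markers had a median of 0.11 over 12 genes, with Tac2, a tachykinin gene, at 2.86 (SE 1.81) and higher in 7 of 7 embryos, and Eomes at -0.49 (SE 0.48). Projection neuron markers had a median of -0.20 over 24 genes, with Bcl11a at -0.45 (SE 0.26) and Neurod2 at -0.67 (SE 0.39). All 6 markers of the Emx1-lineage dorsal telencephalon had a negative difference, with a median of -0.35. Their summed level was highest in matUPD embryo 5.

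**Figure D5:**
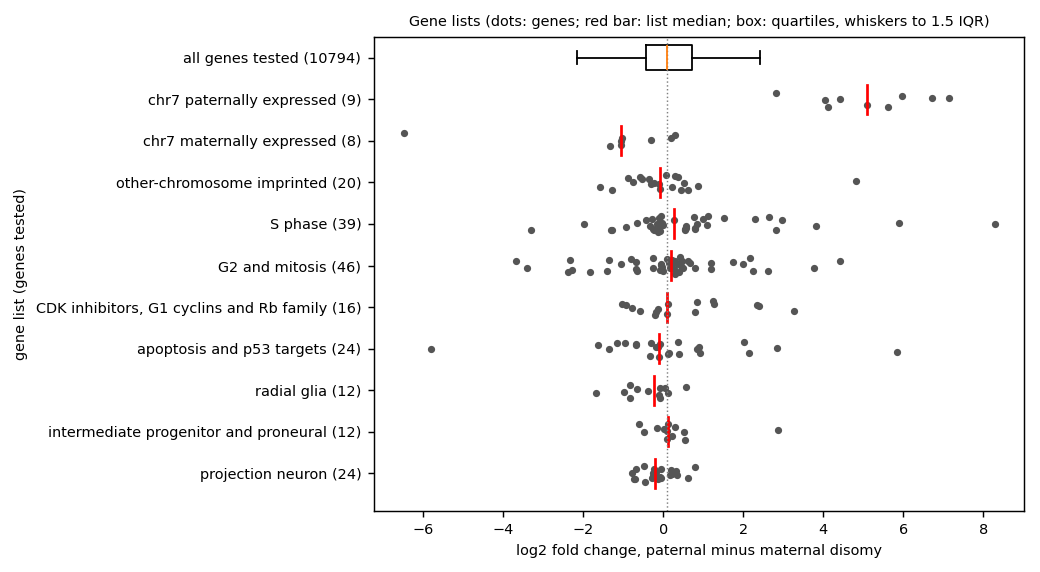
Log2 fold change, patUPD minus matUPD, of the genes tested in each list (dots), with the list median in red, below a box of the quartiles of all 10794 genes; the dotted line is the median of all genes. The paternally expressed chromosome 7 genes all lie right of 2.8, while the medians of the lists from other-chromosome imprinted genes downward lie between -0.24 and 0.26.

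Markers of other cell types were sparse in most libraries, but single libraries held high sums. Erythroid markers summed to 6815 CPM in patUPD embryo 1 and 1465 CPM in yellow embryo 5. Oligodendrocyte lineage markers summed to 573 CPM in matUPD embryo 5. Of 12 interneuron markers 2 were tested, and Sst, the somatostatin gene, had 50 counts in patUPD and 60 in matUPD. Of 7 Cajal-Retzius markers 4 were tested, with Trp73 at 167 counts in patUPD and 9 in matUPD, and Ebf3 at 76 and 1. These 2 had the smallest p of the 4, of which 3 had a positive and 1 a negative log2 difference. The list summed to 9.56 to 186 CPM in patUPD and 0 to 165 CPM in matUPD, with medians of 92.9 and 64.4 CPM. The microglial list summed to at most 21.4 CPM in patUPD and 1.20 CPM in matUPD, and its 1 member tested, Aif1, had 72 counts and 0. None of the 10 endothelial and mural markers passed the filter. Of the oligodendrocyte lineage markers only Olig1 was tested, with 20 counts in patUPD and 1528 in matUPD. Of the erythroid markers, Hbb-bs had 7557 and 32 counts and Hba-a1 4934 and 31, nearly all in patUPD embryo 1. Of the choroid plexus and meningeal markers, Ttr differed by -0.62 (SE 2.57) and Otx2 by -0.35 (SE 3.51).

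The yellow cells hold 1 copy from each parent, and both comparisons use the same yellow libraries. For Ndn and Cdkn1c the yellow median lay between those of the disomic groups. The Mkrn3 median did not, at 13.7 CPM in yellow and 12.2 CPM in patUPD. Summed radial glia markers ranged from 1327 to 2662 CPM in yellow, 1636 to 4876 CPM in patUPD and 2223 to 5078 CPM in matUPD. The medians were 2415 CPM in patUPD and 3883 CPM in matUPD. The part of these differences in the comparisons with yellow, and in that of patUPD with matUPD, was not tested. In patUPD no gene was called against yellow (0% of genes; 172 at an unadjusted p under 0.05; DESeq2 called 62, or 0.574%). The yellow median of Ndn was 483 CPM, or 0.606 of the patUPD median, and patUPD differed from yellow by 0.85 on the log2 scale (SE 0.57, edgeR, adjusted p = 1). Cdkn1c had a yellow median of 25.5 CPM, and patUPD differed from yellow by -4.72 (SE 1.26, edgeR, adjusted p = 1).

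In matUPD the call against yellow was Snrpn (0.00926% of genes), a direction gene; 305 genes had an unadjusted p under 0.05 and DESeq2 called 97 (0.899%). Ndn differed by -3.27 (SE 0.63, edgeR, adjusted p = 0.278), Peg3 by -4.08 (SE 1.10, adjusted p = 1.00) and Mkrn3 by -5.98 (SE 1.55, adjusted p = 1.00). Without the 3 libraries that the study left out, Ndn was called too. Cdkn1c was at 0.32 of the matUPD median in yellow, and matUPD differed from yellow by 1.77 (SE 1.03, edgeR, adjusted p = 1.00). Within embryos the order patUPD, yellow, matUPD from high to low held for Ndn in 7 of 7 embryos, for Peg3 and Mkrn3 in 5, for Usp29 in 3 and for Magel2 in 2. The reverse order held for Cdkn1c in 5 of 7 embryos and for Ube3a in 4.

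The same difference was set against that of embryonic day 13 (E13), where 5 embryos gave 10 libraries whose parent was read from the same 4 genes. No listed chromosome 7 gene differed between the ages by edgeR after adjustment. Ndn differed between patUPD and matUPD by 3.97 (SE 0.83) at E13 and 4.31 (SE 0.70) at E16, and the change between ages was 0.34 (SE 1.01). Cdkn1c differed by -4.55 (SE 1.75) at E13 and -7.24 (SE 1.61) at E16, with a change of -2.70 (SE 2.35). Peg3 differed by 4.07 (SE 1.74) and 5.53 (SE 1.53). The sign was the same at both ages for 12 of the 17 genes, among them the 4 whose sign the choice of groups fixes. How many of all genes tested had the same sign at both ages was not counted, so the 12 stand without that share. The gene that edgeR called, of 11333 tested (0.00882%), was Hba-x, an embryonic globin gene, while DESeq2 called 44 genes for the change between ages. It had 42773, 982 and 1 counts in the patUPD libraries of E13 embryos 1, 2 and 3, 0 in those of embryos 4 and 6, and at most 3 counts in any E16 library.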

How the data were processed

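The deposited files hold raw read counts per gene for each library, made by the authors with STAR 2.5.0c (unique alignments, GRCm38, Gencode M16); per the submitters' processing notes, SAMtools 1.8 and bedtools 2.26.0 handled the reads. The column of counts without strand was used, since the kit marks no strand; reads in more than 1 gene were not counted. Of 53379 genes, 53274 matched the Gencode M21 annotation by identifier.

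The E16 libraries were fitted with edgeR's quasi-likelihood test (version 4.0.16 in R 4.3.3; TMM factors, mean count of at least 10 over 21 libraries, embryo as a block, Benjamini-Hochberg adjustment, threshold 0.05). Differences in log2 CPM used a prior count of 2. Sorted cell number, PCR without molecular identifiers and depths of 472924 to 4728869 counts limit the precision. Single individuals were the replicates per the labels, so libraries with the same number were taken as 1 embryo. The correlation of patUPD and matUPD deviations averaged 0.016 within embryos (-0.030 to 0.066) and -0.0012 between different embryos. The counts thus did not themselves show the pairing, on which the values within embryos rest. Scripts were tested on simulated data. DESeq2 1.42.0, RLE factors, other filters, left-out libraries and embryos, a colour term and a robust fit were alternatives. E13 libraries with at least 40% of reads aligned uniquely entered the comparison of ages.

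Named genes were Cdkn1c, the listed chromosome 7 genes that passed the filter, the 3 unlisted genes with the smallest p in each direction where none was called (numbered, clone-named and sex-linked genes skipped), and the 2 members of each other list with the smallest p; some of these are not reported here. The groups, genes and lists were chosen with earlier results of these data known.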

Additional observations from a re-analysis of the deposited data

Results flagged for a closer look

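Of 62 groups of 7 values examined, 21 held a value whose gap to its nearest neighbour was wide for the group's range. The cut-off gives about 1 in 20 by chance only for values that follow a normal curve. Marker sums with many libraries at or near 0 do not, so the 21 cannot be read against that rate. Within embryos, the difference of Ndn in embryo 5 (9.87 on the log2 scale), of Mkrn3 in embryo 7 (-1.22) and of Peg3 in embryo 2 (-0.21) stood apart from the other 6 embryos. Of the library measures, yellow embryo 7 had 7858 genes detected and a mean Spearman correlation with the other libraries of 0.449, patUPD embryo 7 had a mean correlation of 0.615, and matUPD embryo 5 had 18.5% of reads in more than 1 gene.

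Of the summed marker levels, matUPD embryo 5 was high in dorsal telencephalon markers (3426 CPM) and oligodendrocyte lineage markers (573 CPM). PatUPD embryo 7 was high in intermediate progenitor and proneural markers (2157 CPM). PatUPD embryo 1 was high in erythroid (6815 CPM), endothelial and mural (69.2 CPM), microglial (21.4 CPM) and oligodendrocyte lineage markers (14.6 CPM). Yellow embryo 5 was high in erythroid markers (1465 CPM), yellow embryo 3 in choroid plexus and meningeal markers (313 CPM), yellow embryo 2 in endothelial and mural markers (36.6 CPM) and yellow embryo 7 in oligodendrocyte lineage markers (18.8 CPM). MatUPD embryo 7 had 22.7 CPM of endothelial and mural and 22.7 CPM of erythroid markers, and matUPD embryo 4 had 1.20 CPM of microglial markers, each the highest of its group.

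The difference between patUPD and matUPD of Hba-x changed by -19.2 on the log2 scale from E13 to E16 (edgeR interaction, adjusted p = 0.0301); it rests on the patUPD libraries of E13 embryos 1 and 2.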

How the results depend on the processing

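The comparison of patUPD with matUPD called 3 genes. The count was 3 with no replicate block (libraries not paired by embryo) and 61 with DESeq2, 11 with no filter on low counts and 1 with the red and green libraries only; leaving out 1 embryo gave 1 to 3. Against yellow, patUPD (0 genes) had 62 with DESeq2 and 1 with no filter. MatUPD (1 gene) had 97 with DESeq2, 8 with no filter, 3 without the libraries that the study left out and 0 to 2 without 1 embryo. Of the paternally expressed genes that did not set the direction, 1 was called, 5 with DESeq2, 3 with no filter, 0 with the red and green libraries only and 0 to 1 without 1 embryo. Of the maternally expressed genes 0 were called, and 1, Cdkn1c, with DESeq2 or with no filter. Among the S phase genes DESeq2 called 1, Cdc6, with a log2 fold change past 20 in size. The change between ages (1 gene) had 0 with no replicate block, 44 with DESeq2, 0 with all libraries kept, 0 with a mean count of at least 50 and 0 to 1 without 1 E16 embryo. The cause was not tested, except that leaving out an embryo leaves fewer libraries and that 30 of the 61 DESeq2 calls had log2 fold changes past 20 in size.

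The difference of Cdkn1c within embryos was -5.34 without embryos 5 and 6 (exact p = 0.0625, the smallest that 5 embryos allow) and -6.51 to -5.30 without 1 embryo. The sign of 8 genes with no call turned. Leaving out 1 embryo gave -0.053 to 0.49 for Cd81 (below 0 without embryo 4), -0.83 to 0.18 for Nap1l4 (above 0 without 5), -0.67 to 1.70 for Tnfrsf22 (-0.056, -0.072, -0.59 and -0.67 without 1, 3, 5 and 6), -1.70 to 2.24 for Sst (-0.089 and -1.70 without 2 and 4), -1.03 to 3.71 for Hbb-bs and -0.70 to 2.34 for Hba-a1 (below 0 without 1), and -1.82 to 0.76 for Ttr (0.51 and 0.76 without 2 and 7). Tnfrsf22 was at -0.027 and Sst at -0.55 with no replicate block, and at -0.76 and -1.35 without the libraries that the study left out. Ttr was at 0.51 with a colour term, and Otx2 at 0.29 with DESeq2 and 0.58 with the red and green libraries only. Ndn, Mkrn3, Peg3, Usp29, Cdkn1c and Ube3a kept their direction under all 16 alternatives. Over embryos 1 to 4 alone, an alternative chosen after seeing the data, 607 of 10794 genes were higher and 661 lower in every embryo. The same sign in 4 embryos was thus common among all genes. Among them were 8 and 3 listed genes, and the 8 include the 4 genes that set the direction. Low counts in single libraries limit most of the listed genes.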
